A study of Mus musculus with 50 samples.

Results

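This account compares the effect of blocking the Notch ligands Jag1 and Jag2 on the mouse thyroid 7 days after a single dose with the effect 15 hours after it. It rests on the 20 of 50 RNA-seq libraries of the study that measure these effects against an isotype control, which make up 4 of its 10 groups with 5 libraries in each. They were chosen by their labels: the control and the ligand antibodies at 15 hours, and the set of 7-day libraries that holds both. The per-gene quantity is a difference of differences, the log2 fold change of antibody over control at 7 days minus that at 15 hours, called the interaction below. A negative interaction means that the treated thyroids stood lower relative to their controls at 7 days than at 15 hours, and a positive one the reverse.

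All 20 libraries came from thyroids of male C57BL/6 mice, aged 10 to 12 weeks in the series text and 10 to 14 weeks in the treatment protocol. The control mice received RW, an antibody against ragweed that serves as an isotype control, at 40 mg/kg. The treated mice received aJ1aJ2, antibodies that block Jag1 and Jag2, at 20 mg/kg each. Both were given once into the peritoneum. The series text also mentions daily injections of the thyroid hormones T4 and T3 in the study, and no label says which mice received them. The labels number separate thyroids and say no more about their source, so p-values measure the spread between these samples. Control and treated libraries at 15 hours share none with those at 7 days. The times therefore differ in mice, libraries and sample series as well as in time, and these cannot be told apart.

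Notch signalling passes between touching cells. A Jagged or Delta-like ligand on one cell binds a Notch receptor on its neighbour, the receptor is cleaved, and its intracellular part joins the DNA-binding protein RBPJ to switch on genes such as those of the Hes and Hey families, Nrarp and Notch3. In blood vessels, Jag1 on endothelial cells acts on Notch3 of pericytes and smooth muscle, together called mural cells, and helps to keep them mature. The thyroid makes hormone in follicles that are wrapped in a dense capillary net, and whole glands were sequenced, so fewer cells of a type and less RNA per cell cannot be told apart.

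Of the genes that rose early and faded, 17 of 31 were on the list of interferon-stimulated genes, which cells switch on when interferon binds its receptor, and whose promoters often hold the response element searched here. The promoters of 3 such genes are shown because members of that group moved together. Each is the stretch of 200 bases just before the transcription start (RefSeq, GRCm38.p6), written along the gene's strand, with every match to the element, GAAA, any 2 bases and GAAA again, on either strand in capitals. Isg15 lies at chr4:156200819-156201018 on the minus strand, Ifit1 at chr19:34640689-34640888 on the plus strand and Irf7 at chr7:141266425-141266624 on the minus strand.
Isg15: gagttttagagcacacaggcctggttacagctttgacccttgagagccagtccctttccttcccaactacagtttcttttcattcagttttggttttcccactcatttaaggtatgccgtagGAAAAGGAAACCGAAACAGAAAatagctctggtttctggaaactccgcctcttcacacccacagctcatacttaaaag
Ifit1: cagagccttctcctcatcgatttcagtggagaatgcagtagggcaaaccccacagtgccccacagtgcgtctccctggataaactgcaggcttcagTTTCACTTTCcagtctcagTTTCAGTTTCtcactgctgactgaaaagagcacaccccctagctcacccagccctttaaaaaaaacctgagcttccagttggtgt
Irf7: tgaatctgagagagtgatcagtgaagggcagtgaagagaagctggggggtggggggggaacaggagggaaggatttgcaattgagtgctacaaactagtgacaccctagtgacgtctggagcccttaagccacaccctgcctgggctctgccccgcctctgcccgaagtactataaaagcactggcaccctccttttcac

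Isg15 holds 3 overlapping matches, Ifit1 holds 2 separate ones and this window of Irf7 holds none. In the wider window of 250 bases before to 50 after the start, on both strands, the motif was found in 14 of the 25 interferon-stimulated genes that had a RefSeq promoter (56%). Over all 27025 genes with a promoter the share was 3.99%. Of the genes that rose early and faded, 10 of 23 with a promoter held it (43.5%). The other two motifs searched, also on both strands, gave these shares. TGGGAA, the core that RBPJ binds, was found for 2 of 5 Notch readout genes (40%) against 28.3% of all genes, and the heat-shock core, which is GAA, TTC and GAA with any 2 bases between each, for 4 of 15 cold-shock and heat-shock genes (26.7%) against 0.662%. A match is a run of letters and does not show that a factor binds there.

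Total counts ran from 17.8 to 37.6 M per library, and Tg, which encodes the hormone precursor thyroglobulin and marks the tissue, took 8.87 to 36.5% of them. Mean totals were 30.6 M in the controls and 29.1 M in the treated libraries at 15 hours, against 22.6 and 20.4 M at 7 days. The part of this difference in the counts of calls was not tested. Markers of other tissues stood far higher in single libraries, and their source was not tested. Summed skeletal muscle markers were high in aJ1aJ2 replicate 3 at 15 hours and aJ1aJ2 replicate 2 at 7 days. Airway markers were high in RW replicate 5 and squamous epithelium markers in RW replicate 3 at 15 hours. T cell and thymus markers were high in RW replicate 2 and liver transcripts in RW replicate 1 at 7 days. High muscle sums were not confined to treated libraries. At 15 hours controls ran from 969 to 98445 unscaled CPM and treated libraries up to 96512. Controls at 7 days reached 33073 and treated libraries 128999. For many of the genes and lists described below, a fit with the 6 libraries named here by replicate left out, which keeps 14, is given. It is not given for every call that it ended, so a call without it need not have held. This second fit was chosen after the data were seen.

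Of 18487 genes tested, 58 (0.314%) had an interaction past an adjusted p of 0.05 (edgeR quasi-likelihood test, Benjamini-Hochberg), 18 higher (0.0974%) and 40 lower (0.216%). The effect at 15 hours alone was past it for 230 genes (1.24%), 99 higher (0.536%) and 131 lower (0.709%). When the 6 libraries were omitted, the count was 165, 27 higher and 138 lower, and on log2(FPKM + 0.1) and log2(FPKM + 1) the balance turned to 73 higher and 30 lower and to 79 and 13. It was 136 without aJ1aJ2 replicate 5 and 151 without RW replicate 2 of that time. At 7 days it was past it for 71 genes (0.384%), 22 higher (0.119%) and 49 lower (0.265%). Genes higher at 15 hours mostly did not keep their direction: 37 of the 99 were above 0 at 7 days, with a median log2 fold change of -0.15. Of the 131 genes lower at 15 hours, 119 were below 0 at 7 days too, with a median of -0.42. Over all genes tested, 49.9% were above 0 at 7 days.

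By these calls, 42 genes responded early and faded, meaning that they passed at 15 hours and had an interaction of the opposite sign. Another 10 responded late, passing at 7 days with an interaction of the same sign, and 5 passed at both times. These classes overlap in Slfn1, which is counted in all 3. For 188 genes called at 15 hours and 61 called at 7 days the interaction did not pass, so that the difference between the times was not shown. The interaction count depended on single libraries. It ran from 6 without RW replicate 2 at 7 days to 146 without RW replicate 1 at 7 days, and the omission of any library other than RW replicate 4 at 7 days, RW replicate 1 at 15 hours and aJ1aJ2 replicate 3 at 15 hours moved it by more than 1.5 times. With the 6 libraries high in markers of other tissues left out it was 89, and its balance turned over, to 82 higher and 7 lower. Without RW replicate 1 at 7 days it did too, with 92 higher and 54 lower.

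**Figure D1:**
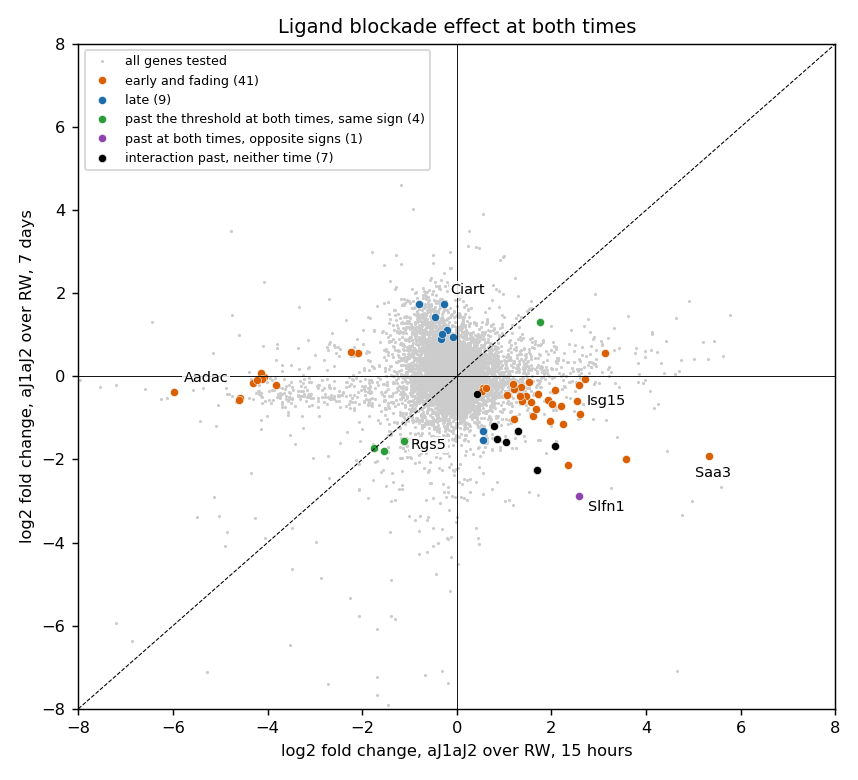
Log2 fold change of aJ1aJ2 over RW at 7 days (vertical axis) against that at 15 hours (horizontal axis), 1 point per gene tested, coloured by the class of response. Slfn1, called at both times in opposite directions, has its own colour, and 11 genes lie beyond the axes. Genes that rose early lie to the right near or below the horizontal zero line, genes that responded late lie near the vertical zero line, and Rgs5, Ndufa4l2, Cox4i2 and Ms4a6d lie along the diagonal.

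Of the 31 genes that rose early and faded, 17 were on the list of interferon-stimulated genes and 14 were not. Of 35 genes on this list, 27 were higher at 15 hours, none was called at 7 days, and 17 had a lower interaction, against 0.536%, 0.119% and 0.216% of all genes called in those directions. At 15 hours all 35 had a positive log2 fold change, with a median of 1.38, and for 23 the lowest treated library lay above the highest control, as for 1.97% of all genes in either direction. At 7 days 31 of the 35 were below 0 with a median of -0.33, and no member separated the groups. The median interaction was -1.80, whereas the median over all genes lay at 0.00 for the interaction, -0.01 at 15 hours and -0.00 at 7 days. At 7 days 10 members were lower at an unadjusted p of 0.05 by edgeR, and DESeq2 called 1 lower. The list was known from earlier results of these data to move at 15 hours, so its counts are a description.

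Summed over the list, the 5 control libraries at 15 hours held 519, 523, 634, 639 and 799 CPM (counts scaled to the library's total alone, without the TMM scaling between libraries). The treated ones held 756, 1023, 1410, 1638 and 1855. The groups overlapped only in the treated library of 756, replicate 4. At 7 days the controls held 533, 566, 590, 710 and 839 and the treated libraries 367, 515, 548, 588 and 627, so the treated libraries lay within the range of their controls or below it.

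Isg15 encodes a ubiquitin-like protein that is joined to other proteins during the interferon response. At 15 hours its 5 control libraries held 1.76, 2.35, 3.23, 3.93 and 4.41 CPM (scaled by TMM, as all single-gene values below) and the treated ones 8.27, 13.4, 19.9, 22.6 and 30.7. At 7 days the controls held 1.93, 2.02, 2.98, 4.01 and 5.62 and the treated ones 0.838, 1.19, 1.99, 2.28 and 2.57. All treated libraries exceeded all controls at 15 hours, and the groups overlapped at 7 days with the treated libraries toward the lower end. The log2 fold change was 2.59 ± 0.39 (SE) at 15 hours (edgeR adjusted p = 0.00288) and -0.90 ± 0.39 at 7 days (edgeR adjusted p = 0.408). The interaction was -3.49 ± 0.55 (edgeR adjusted p = 0.0139), and without the 6 libraries it was -3.39 (adjusted p = 0.0767).

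Irf7 encodes a transcription factor that amplifies interferon production. Its control libraries at 15 hours held 7.58 to 11.5 CPM, and the treated ones 19.1, 34.1, 47.0, 81.9 and 101. At 7 days the controls held 6.98 to 16.1 CPM and the treated libraries 6.90 to 13.3. The groups were apart at 15 hours and overlapped at 7 days. The log2 fold changes were 2.59 ± 0.35 and -0.21 ± 0.33, and the interaction was -2.80 ± 0.47 (edgeR adjusted p = 0.0231). This interaction missed the threshold in 5 of the 20 fits that leave out 1 library, with adjusted p up to 0.0588 without RW replicate 2 at 15 hours. In the fit of 14 libraries it was -2.63 (adjusted p = 0.192). Irf7 shares exon sequence with Phrf1, which runs the other way, so its reads are uncertain.

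Ifit1 encodes a protein that binds foreign RNA, and Oasl2 a protein related to the oligoadenylate synthetases that sense double-stranded RNA. Ifit1 held 3.65 to 6.46 CPM in the controls and 7.99, 17.4, 32.9, 36.2 and 46.0 CPM in the treated libraries at 15 hours, against 2.84 to 7.68 and 2.13 to 5.25 at 7 days. Oasl2 held 11.8 to 15.3 CPM in the controls and 22.5, 36.5, 75.1, 85.5 and 89.6 in the treated libraries at 15 hours, against 11.8 to 24.2 and 6.96 to 12.0 at 7 days. For both genes the groups were apart at 15 hours and overlapped at 7 days. The interactions were -3.15 ± 0.54 for Ifit1 (edgeR adjusted p = 0.0231) and -2.93 ± 0.42 for Oasl2 (edgeR adjusted p = 0.0117). With the 6 libraries left out, Oasl2 kept its call at -2.57 (adjusted p = 0.0480) and Ifit1 did not at -2.68 (adjusted p = 0.129).

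Another member with the same course was Bst2, which tethers budding virus to the cell. Bst2 had an interaction of -2.15 ± 0.43 (edgeR adjusted p = 0.0404), and without the 6 libraries of -2.11 (adjusted p = 0.273). Usp18, the enzyme that removes Isg15 from proteins again, held 2.21 to 5.04 CPM in controls and 5.16 to 19.2 in treated libraries at 15 hours, and 2.07 to 5.87 and 1.95 to 3.67 at 7 days. Its interaction was -2.68 (edgeR adjusted p = 0.0231), and without the 6 libraries -2.63 (adjusted p = 0.0900). Usp18 shares exon sequence with a neighbouring gene, and the Oasl, Oas, Ifit and Slfn families hold near-identical copies, so reads of these may be split between genes.

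Without the 6 libraries, 11 members of the interferon list were called at 15 hours in place of 27, and 2 had a called interaction in place of 17, while the medians stayed at 1.33 and -1.69. Across the other alternatives the median at 15 hours ran from 0.57 to 1.56 and that of the interaction from -1.96 to -0.65.

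**Figure D2:**
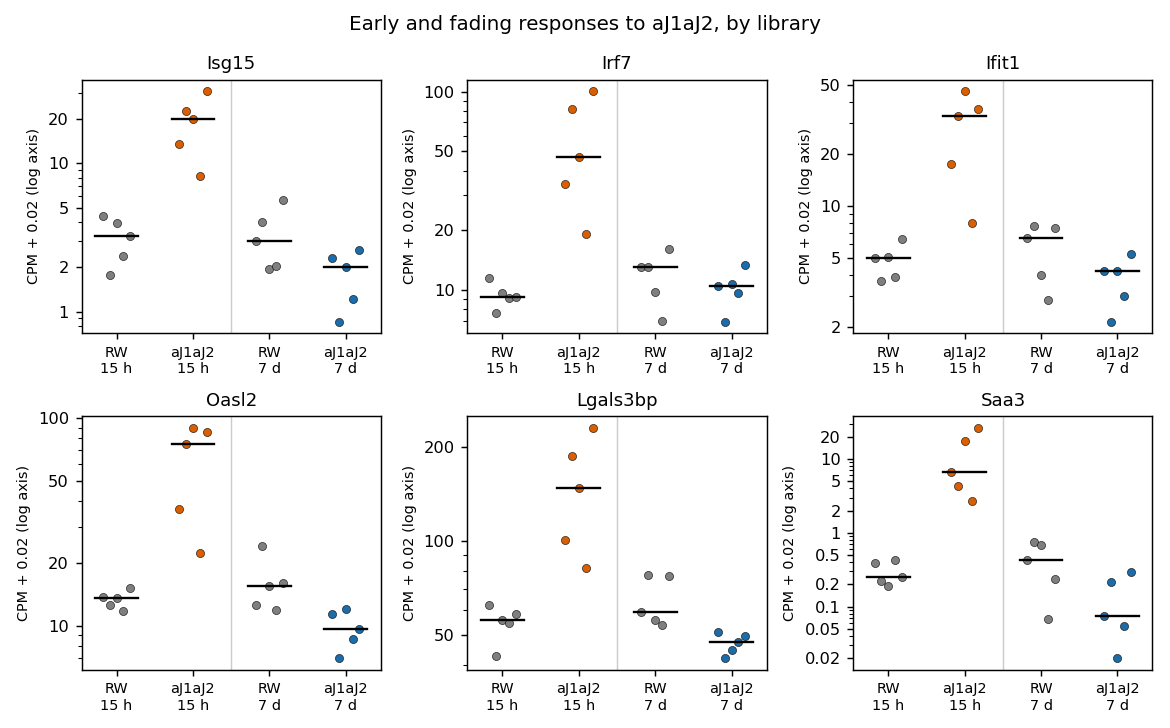
CPM (log axis, offset 0.02) of genes whose response to aJ1aJ2 was present at 15 hours and faded, 1 point per library and a bar at the group median, for RW and aJ1aJ2 at each time. Treated libraries of Isg15 lie between 8.27 and 30.7 at 15 hours, above all controls, and between 0.838 and 2.57 at 7 days.

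Genes outside the interferon list shared this course. Among them Ifi213, Phf11b, Saa3, Slfn8 and Trim30d had a match to the interferon response element in the wider promoter window. The list may therefore not hold all interferon-stimulated genes of this class. Saa3, an acute-phase protein made by inflamed tissue, held 0.173 to 0.410 CPM in the controls and 2.70, 4.34, 6.63, 17.7 and 26.3 in the treated libraries at 15 hours. Control libraries at 7 days held 0.0481 to 0.734 CPM and the treated libraries 0.274 or less. Its interaction was -7.26 ± 1.07 (edgeR adjusted p = 0.0117), and the low counts at 7 days make this size imprecise; without the 6 libraries it was -6.67 (adjusted p = 0.146). Saa3 belongs to a family of close copies.

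Lgals3bp, a secreted glycoprotein that binds galectin-3, was the most abundant gene of those named in this class. It held 42.7, 54.5, 55.6, 58.4 and 62.3 CPM in the controls and 82.0, 101, 148, 188 and 231 in the treated libraries at 15 hours. By 7 days the controls held 53.8 to 77.9 CPM and the treated libraries 42.0 to 51.0, so the treated group lay wholly above its controls at 15 hours and wholly below them at 7 days. Its interaction was -1.92 ± 0.30 (edgeR adjusted p = 0.0139), while the 7-day effect itself, -0.47 ± 0.21, did not pass (edgeR adjusted p = 0.436). When the 6 libraries were omitted, the interaction was -1.86 (adjusted p = 0.0804). Areg, a ligand of the epidermal growth factor receptor, had an interaction of -5.56 ± 1.12 (edgeR adjusted p = 0.0404). Dnaja1, a co-chaperone of heat-shock protein 70, moved by a smaller amount, with an interaction of -0.82 ± 0.17 (edgeR adjusted p = 0.0433), and kept the call in few of the fits that leave out 1 library. In the fit of 14 libraries neither passed, with adjusted p = 0.308 for Areg and 0.237 for Dnaja1.

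Slfn1, of the schlafen family of lymphocytes and interferon-treated cells, was the 1 gene that passed at both times in opposite directions. At 15 hours it held 0.191 to 0.428 CPM in the controls and 1.01, 1.11, 2.24, 2.49 and 2.85 in the treated libraries. The controls at 7 days held 0.337, 0.734, 2.10, 2.49 and 5.53 CPM and the treated libraries 0.210 to 0.445. The treated libraries thus exceeded the controls at 15 hours, and at 7 days all but 1 control exceeded the treated libraries. The log2 fold changes were 2.58 ± 0.55 (edgeR adjusted p = 0.0216) and -2.88 ± 0.58 (edgeR adjusted p = 0.0385). With the 6 libraries left out, among them the control high in T cell and thymus markers, it passed at neither time (adjusted p = 0.0731 at 15 hours and 0.338 at 7 days), while the interaction of -4.71 did (adjusted p = 0.0294).

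Of 18 acute-phase genes, 4 rose at 15 hours (1 without the 6 libraries), Saa3, Lcn2, Serpina3n and Ccl2, against 0.536% of all genes. No member was called at 7 days, where 2 were higher and 2 lower at an unadjusted p of 0.05. Lcn2, an iron-binding protein of neutrophils and inflamed epithelium, held 1.38 to 2.42 CPM in the controls and 4.81 to 20.0 in the treated libraries at 15 hours (log2 fold change 2.48 ± 0.45, edgeR adjusted p = 0.00683), and without the 6 libraries its change was 2.13 (adjusted p = 0.132). At 7 days its fold change was 0.62 ± 0.46, but the interaction of -1.86 ± 0.63 did not pass (edgeR adjusted p = 0.238), so that its fading was not shown. Ccl7, a chemokine that draws monocytes, likewise rose at 15 hours by 2.76 ± 0.39 (edgeR adjusted p = 0.00204), was at 1.38 ± 0.46 at 7 days (edgeR adjusted p = 0.241), and had an interaction of -1.38 ± 0.61 (edgeR adjusted p = 0.414). Summed neutrophil markers ran from 4.19 to 13.4 unscaled CPM in the controls and from 5.77 to 19.7 in the treated libraries at 15 hours, and from 2.85 to 9.05 and 4.47 to 10.3 at 7 days. Their part in these results was not tested.

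Genes of MHC and antigen presentation, many of which interferon raises, leaned the same way with few calls. At 15 hours 2 of 22 were higher (0.536% of all genes were), H2-T23, a class I molecule, and Nlrc5, an activator of class I genes. Without the 6 libraries neither was. All 22 had a negative interaction, with a median of -0.64, but none passed by edgeR, DESeq2 called 5 lower, and 12 were below an unadjusted p of 0.05 in that direction, against 5.97% of all genes.

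A further 11 genes fell early and faded, of which 2 were on the list of transcripts abundant in liver and 9 were not. Those 9 include the eosinophil-drawing chemokine Ccl24, whose interaction did not pass without the 6 libraries (2.39, edgeR adjusted p = 0.0711). They also include Aadac, Mup11, Serpina1d and Sult2a8, which are genes of liver too, so the list does not hold all liver genes of this class. Of the 21 listed transcripts, 18 were lower at 15 hours (0.709% of all genes were), none was called at 7 days and 2 had a higher interaction, with medians of -3.46, -0.47 and 2.94. At 7 days 0 members were below an unadjusted p of 0.05 by edgeR and DESeq2 called 0. Alb, the main plasma protein, held 32.8, 33.7, 115, 117 and 149 CPM in the controls and 2.43, 5.10, 5.29, 6.59 and 10.9 in the treated libraries at 15 hours. Control libraries at 7 days held 320, 337, 337, 480 and 1535 CPM and the treated libraries 236, 261, 278, 507 and 732. The groups were apart at 15 hours and overlapped at 7 days, and both 7-day groups held more Alb than either group at 15 hours. Its effect at 15 hours was -3.88 ± 0.60 (edgeR adjusted p = 0.00308), and its interaction of 3.30 ± 0.77 did not pass (edgeR adjusted p = 0.0806).

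Fgb, the beta chain of fibrinogen, held 1.91, 3.86, 7.09, 9.71 and 15.4 CPM in the controls and 0.104 to 0.487 in the treated libraries at 15 hours, with an interaction of 4.06 ± 0.84 (edgeR adjusted p = 0.0439). Serpina1d, a protease inhibitor of plasma with near-identical copies, held 1.55 to 17.4 CPM and 0.258 to 0.492, with an interaction of 4.03 ± 0.79 (edgeR adjusted p = 0.0371). The liver is the main source of these transcripts in the body, and their source in these glands was not tested. With those 6 libraries left out, of which 1 control at 7 days was chosen for its high liver sum, 18 of the liver transcripts had a called interaction (median 3.98), all of them among the 82 higher genes of that fit.

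**Figure D3:**
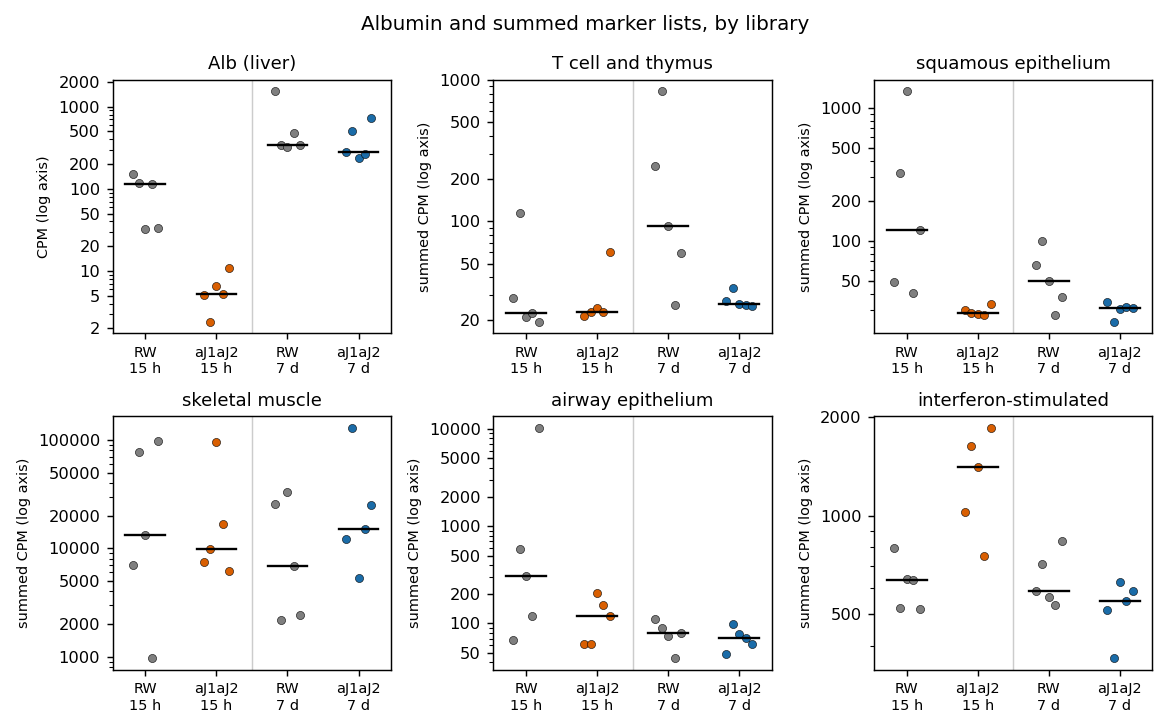
CPM of Alb and summed unscaled CPM of 5 gene lists (log axes), 1 point per library and a bar at the group median, for RW and aJ1aJ2 at each time. Alb is lower in all aJ1aJ2 libraries at 15 hours and overlaps at 7 days, single control libraries reach 830 for T cell and thymus markers and 1335 for squamous markers, and the interferon sum is highest in aJ1aJ2 at 15 hours.

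Fewer genes were called late than early at an adjusted p of 0.05. Other counts went the other way, with 629 genes whose groups did not overlap at 7 days against 365 at 15 hours, 2024 against 1743 below an unadjusted p of 0.05, and 901 against 166 calls with quality weights. The 7 genes that rose at 7 days with a positive interaction were Adam11, Ciart, Fmo2, Klf9, Mrc1, Slc10a6 and Spsb1. The 3 that fell with a negative one were Il2rg, Shisal1 and Slfn1. All 22 genes called higher at 7 days were about evenly spread around 0 at 15 hours, with 13 above it and a median of 0.08. None of the 7-day calls was found in a fit of the 10 libraries at 7 days alone, and the 22 and 49 calls became 5 and 4 without the 6 libraries. The 7-day calls are therefore not stable. The reported fit estimates the spread with the 15-hour libraries too. Both other fits hold fewer libraries, and the cause of the loss was not tested. Single omissions moved the 7-day count from 71 to between 2, without aJ1aJ2 replicate 3 at 7 days, and 170, without RW replicate 4 at 7 days.

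Ciart encodes a repressor of the circadian clock. It held 0.901, 1.09, 1.10, 1.13 and 1.56 CPM in the controls and 0.599, 0.865, 0.904, 0.936 and 1.46 in the treated libraries at 15 hours. By 7 days the controls held 1.83, 1.94, 2.10, 2.24 and 2.40 CPM and the treated libraries 3.39, 6.26, 7.75, 7.77 and 9.99. The groups overlapped at 15 hours, and at 7 days every treated library exceeded every control. The fold changes were -0.28 ± 0.26 and 1.74 ± 0.25 on the log2 scale, the latter with an edgeR adjusted p of 0.0101, and the interaction was 2.02 ± 0.36 (edgeR adjusted p = 0.0231). Without the 6 libraries it was 1.95 (adjusted p = 0.105).

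Klf9 encodes a transcription factor that glucocorticoids and thyroid hormone induce. It held 81.4 to 129 CPM in the controls and 67.2 to 97.7 in the treated libraries at 15 hours. The controls at 7 days held 86.5, 124, 124, 134 and 138 CPM and the treated libraries 189, 197, 207, 218 and 317. The 7-day groups did not overlap. The interaction was 1.23 ± 0.24 (edgeR adjusted p = 0.0404), and it passed in 5 of the 20 fits that leave out 1 library. With those 6 libraries left out, it was 1.18 (adjusted p = 0.0804).

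Genes of the circadian clock leaned the same way as Ciart. Of 18 core clock genes, Ciart and Per2 were called higher at 7 days, none was called at 15 hours, and Ciart alone had a called interaction. At 15 hours 1 was higher and 3 were lower at an unadjusted p of 0.05 by edgeR, and DESeq2 called 0. The median was -0.25 at 15 hours and 0.70 at 7 days, and 10 of the 18 had an interaction above 0 at an unadjusted p of 0.05, against 4.91% of all genes. At 7 days Per1, Per2, Per3, Cry2, Tef, Hlf and Ciart were higher in all treated libraries than in all controls, as 3.4% of all genes were apart in either direction. Per2, a repressor in the clock's feedback loop, held 29.6, 39.7, 43.0, 48.7 and 59.5 CPM in the controls and 68.7, 85.7, 100, 124 and 145 in the treated libraries at 7 days (log2 fold change 1.25 ± 0.26, edgeR adjusted p = 0.0453). Its effect at 15 hours was 0.77 ± 0.26, so its interaction of 0.48 ± 0.37 was small and did not pass (edgeR adjusted p = 0.638). Arntl, the activator of the loop, had values of 8.68 to 16.2 CPM in the controls and 3.65 to 14.0 in the treated libraries at 7 days, and did not pass (edgeR adjusted p = 0.303).

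The hour of necropsy is not given in the labels. Dbp, a clock output gene with a large daily swing, held 2.98 to 7.33 CPM in the controls at 15 hours and 51.8 to 93.9 in those at 7 days, so the groups of controls stood far apart. The part of collection time in the clock results was not tested. When the 6 libraries were omitted, no clock gene was called at 7 days, and the median was 0.59.

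Of 15 glucocorticoid-responsive genes, Klf9 was the only one called at 7 days or for the interaction, and Lcn2 the only one at 15 hours, and without the 6 libraries none was. The median at 7 days was 0.62. Fkbp5, a chaperone that restrains the glucocorticoid receptor, held 23.6, 27.8, 33.5, 37.4 and 70.7 CPM in the controls and 73.4, 80.5, 97.0, 108 and 204 in the treated libraries at 7 days. These groups did not overlap, but the fold change of 1.54 ± 0.43 did not pass (edgeR adjusted p = 0.132), and at 15 hours it was 0.60 ± 0.42 (edgeR adjusted p = 0.821).

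Other genes that rose late were Fmo2, Mrc1, Slc10a6, Spsb1 and Adam11. Fmo2, a flavin monooxygenase, held 26.4 to 74.4 CPM in the controls and 24.4 to 34.5 in the treated libraries at 15 hours. Control libraries at 7 days held 24.2 to 39.7 CPM and the treated libraries 59.2, 62.2, 76.2, 91.0 and 100. The 7-day groups did not overlap, and the interaction of 1.89 ± 0.34 (edgeR adjusted p = 0.0231) was past the threshold without the 6 libraries too, at 1.62 (adjusted p = 0.0178). Mrc1, the mannose receptor of resident macrophages, held 9.38 to 14.9 CPM in the controls and 16.1 to 33.5 in the treated libraries at 7 days, with an interaction of 1.32 ± 0.27 (edgeR adjusted p = 0.0404). Slc10a6, a carrier of sulfated steroids, and Spsb1, an adaptor of ubiquitin ligases, had interactions of 2.54 ± 0.50 (edgeR adjusted p = 0.0371) and 1.33 ± 0.26 (edgeR adjusted p = 0.0404). Adam11, a membrane protein of the disintegrin family, had one of 1.04 ± 0.22 (edgeR adjusted p = 0.0463). In the fit of 14 libraries the interactions of Mrc1 (adjusted p = 0.0894), Slc10a6 (0.271) and Spsb1 (0.225) did not pass, and that of Adam11 did, at 1.19 (adjusted p = 0.0336). The 7-day effect of Adam11 did not pass there, at 0.995 (edgeR adjusted p = 0.0564). Of the 7 genes that rose late, only Fmo2 kept its 7-day call in that fit.

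Mrc1 was 1 of 20 macrophage and dendritic cell markers, of which it rose and Ccr7, a homing receptor of mature dendritic cells, fell at 7 days, and without the 6 libraries no marker was called. Cd163, a scavenger receptor, and Lyve1, a hyaluronan receptor, both found on macrophages near vessels, were higher in all treated libraries than in all controls at 7 days without passing. Cd163 held 7.30 to 15.7 and 16.7 to 39.7 CPM, with a fold change of 1.23 ± 0.34 on the log2 scale (edgeR adjusted p = 0.136). At 15 hours the called markers were others, Adgre1 and Itgam, both higher. The sum of the macrophage list was 190 to 381 unscaled CPM in the controls and 280 to 354 in the treated libraries at 7 days, and 299 to 3771 and 443 to 528 at 15 hours, where the control library of 3771 was the one high in airway markers.

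Galnt15, a glycosyltransferase of fibroblasts, held 15.7, 20.1, 20.8, 21.5 and 36.9 CPM in the controls and 41.7, 56.4, 59.9, 90.3 and 170 in the treated libraries at 7 days. Its fold change was 1.86 ± 0.34 on the log2 scale (edgeR adjusted p = 0.0263) against 0.04 ± 0.33 at 15 hours, but the interaction of 1.82 ± 0.47 did not pass (edgeR adjusted p = 0.105). Without the 6 libraries its 7-day change was 1.57 (adjusted p = 0.110). It was the only one of 16 fibroblast genes called at 7 days, and Ly6a, a surface protein that interferon raises, was the only one called at 15 hours, and without the 6 libraries none was. The median interaction of the list was 0.82, and 8 of the 16 were above 0 at an unadjusted p of 0.05, against 4.91% of all genes.

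**Figure D4:**
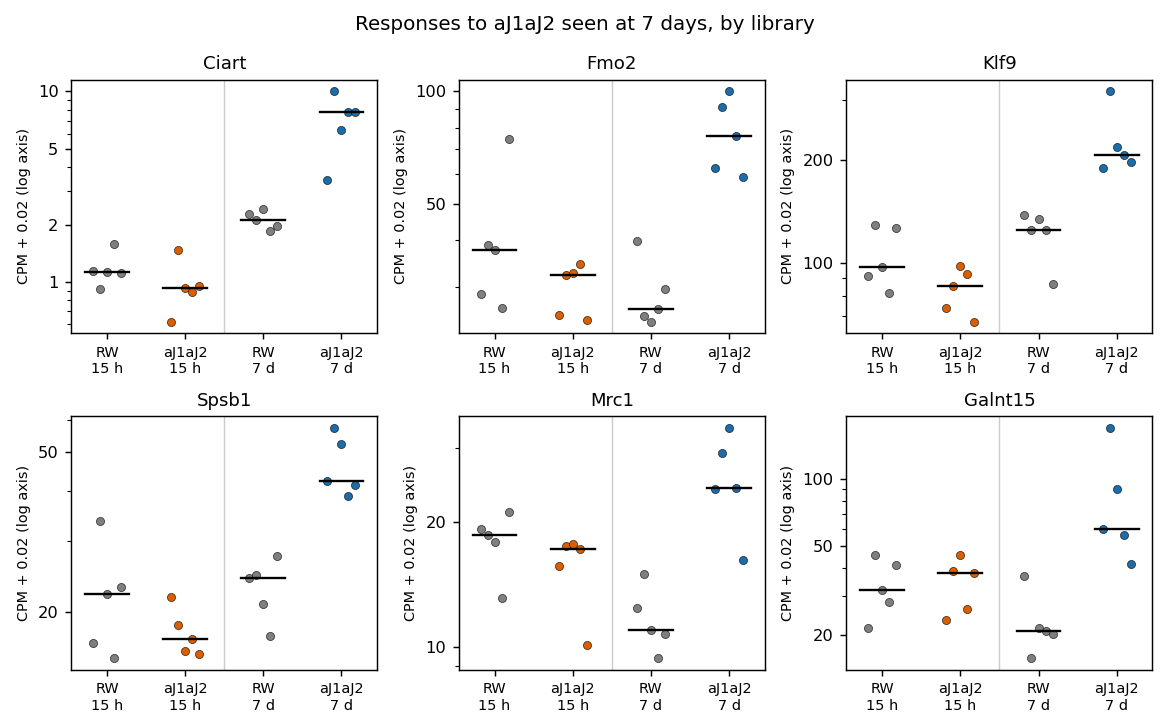
CPM (log axis, offset 0.02) of genes whose response to aJ1aJ2 was seen at 7 days, 1 point per library and a bar at the group median, for RW and aJ1aJ2 at each time. For Ciart the 5 treated libraries at 7 days lie between 3.39 and 9.99, above controls of 1.83 to 2.40, while the groups overlap at 15 hours.

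Il2rg and Shisal1 were lower at 7 days with a called interaction. Il2rg, the shared chain of several interleukin receptors, held 2.79, 5.01, 5.31, 7.53 and 13.3 CPM in the controls and 1.68 to 2.95 in the treated libraries at 7 days. The groups overlapped slightly, and the interaction was -2.09 ± 0.42 (edgeR adjusted p = 0.0404). Its exons are shared with a neighbouring gene on the same strand. Shisal1, a small membrane protein, held 4.08 to 7.73 CPM in the controls and 7.70 to 9.31 in the treated libraries at 15 hours, and 3.46 to 6.78 and 1.39 to 2.85 at 7 days, with an interaction of -1.87 ± 0.33 (edgeR adjusted p = 0.0231). When the 6 libraries were omitted, neither passed, at -1.33 for Il2rg (adjusted p = 0.199) and -1.73 for Shisal1 (adjusted p = 0.0665).

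Summed T cell and thymus markers were high in control libraries at 7 days. Their sum was 25.5, 59.6, 92.3, 246 and 830 unscaled CPM in the controls and 25.2 to 33.5 in the treated libraries, so that 4 controls lay above the treated libraries and 1 among them. Of the 15 markers, 2 were lower at 7 days, 14 were below an unadjusted p of 0.05 in that direction (6.06% of all genes were) and the median was -4.52. Tbata, a gene of thymic epithelium, held 2.79, 15.6, 16.3, 21.5 and 44.7 CPM in the controls and 0.277 to 0.547 in the treated libraries, and fell by 5.77 ± 0.83 on the log2 scale (edgeR adjusted p = 0.0101), with a call that was lost without aJ1aJ2 replicate 3 at 7 days (adjusted p = 0.0667). The interaction of Tbata was -4.39 ± 1.02 (edgeR adjusted p = 0.0806). Cd3e, part of the T cell receptor complex, fell by 4.27 ± 0.85 (edgeR adjusted p = 0.0357). In the fit of 14 libraries the 7-day changes were -4.94 for Tbata (adjusted p = 0.108) and -2.63 for Cd3e (adjusted p = 0.335).

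A list of 8 thymic epithelium genes, drawn up after the values were seen, had 4 members lower at 7 days (0 without the 6 libraries) and a median of -2.61. Of all genes 0.265% were lower at that time. The thymus lies near the thyroid, and how much of it each gland carried was not measured apart from these markers. Its part in the lower late genes was not tested. With RW replicate 2 and the other 5 libraries left out, no T cell marker was called at 7 days and the median was -2.31. Top2a, an enzyme of dividing cells, was the only called gene of 34 of the cell cycle at 7 days, and held 2.17 to 17.5 CPM in the controls and 0.547 to 1.26 in the treated libraries. Over both times 6 of the 34 were lower on average (0.617% of all genes were). At an unadjusted p of 0.05, 14 were lower at 15 hours and 19 at 7 days, against 803 and 1121 of all 18487 genes. For 11 the treated libraries lay below all controls at 7 days, as for 347 of all 18487 genes, and for 0 at 15 hours. The sum of the cell cycle list overlapped at 7 days. It was 142 to 250 unscaled CPM in the controls and 123 to 506 in the treated libraries. Without the 6 libraries no cell cycle gene was called at either time or on average.

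A few genes of mural cells were lower at both times. The average effect over both times was past the threshold for 152 genes (0.822%), 38 higher (0.206%) and 114 lower (0.617%). No gene passed an adjusted p of 0.05 for the combined test, which takes the larger of the 2 p-values where both effects share a sign. The smallest was 0.0678 for Rgs5 (edgeR, Benjamini-Hochberg), 129 genes (0.698%) were below an unadjusted p of 0.05, and DESeq2 called 4. Counted as passing at each time on its own, Rgs5, Ndufa4l2 and Cox4i2 fell at both and Ms4a6d rose at both. In 12 genes (0.0649%) the groups did not overlap at either time and the direction was the same. The lower ones were Clca2, Cox4i2, Ephx3, Ndufa4l2, Notch3, Rgs5 and Slitrk6, and the higher ones Ccl6, Ccl9, Ifi207, Ms4a6d and Siglec1.

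Rgs5, a regulator of G protein signalling that marks pericytes, held 211, 255, 289, 304 and 305 CPM in the controls and 99.6, 110, 121, 136 and 160 in the treated libraries at 15 hours. By 7 days the controls held 172, 213, 214, 254 and 266 CPM and the treated libraries 61.9, 65.1, 71.5, 74.4 and 110. Treated libraries lay below all controls at both times. The log2 fold change was -1.12 ± 0.17 at 15 hours (edgeR adjusted p = 0.00308) and -1.55 ± 0.18 at 7 days (edgeR adjusted p = 0.000796). The interaction of -0.43 ± 0.24 did not pass (edgeR adjusted p = 0.540). The average effect over both times was -1.33 ± 0.12 (edgeR adjusted p = 3.15e-05), and without the 6 libraries it was -1.51 (adjusted p = 2.38e-05).

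Ndufa4l2 encodes a mitochondrial protein that pericytes express, and Cox4i2 an alternative subunit of cytochrome c oxidase found in the same cells. Ndufa4l2 held 4.90, 5.09, 6.09, 7.95 and 9.73 CPM in the controls and 1.46 to 2.63 in the treated libraries at 15 hours, and 4.25, 4.34, 4.89, 5.10 and 11.1 against 1.22 to 2.30 at 7 days. Its fold changes were -1.76 ± 0.28 (edgeR adjusted p = 0.00405) and -1.73 ± 0.29 (edgeR adjusted p = 0.0195). Cox4i2 held 1.43 to 2.70 and 0.394 to 0.831 CPM at 15 hours and 1.13 to 3.46 and 0.222 to 0.838 at 7 days, with fold changes of -1.54 ± 0.34 (edgeR adjusted p = 0.0251) and -1.80 ± 0.35 (edgeR adjusted p = 0.0356). All treated libraries of both genes lay below all controls. Ndufa4l2 shares exon sequence with Shmt2 on the opposite strand. With those 6 libraries left out, Ndufa4l2 passed at both times and Cox4i2 at neither (adjusted p = 0.0959 and 0.0863).

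Notch3, the receptor of mural cells and itself a Notch target, held 31.9, 40.3, 41.6, 46.9 and 48.1 CPM in the controls and 14.6, 20.2, 24.9, 26.9 and 28.8 in the treated libraries at 15 hours. The controls at 7 days held 39.2, 46.1, 49.0, 51.8 and 52.5 CPM and the treated libraries 20.4, 30.2, 33.7, 34.0 and 35.3. The groups were apart at both times. Its effect passed at 15 hours, -0.86 ± 0.18 (edgeR adjusted p = 0.0161), and not at 7 days, -0.63 ± 0.18 (edgeR adjusted p = 0.128), but the interaction of 0.22 ± 0.25 did not pass (edgeR adjusted p = 0.741), so that a difference between the times was not shown. The average effect was -0.75 ± 0.12 (edgeR adjusted p = 0.0124). Notch3 has exon overlap with a gene on the opposite strand, and its call at 15 hours was lost without aJ1aJ2 replicate 5 at that time (adjusted p = 0.0578).

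Not every mural gene followed. Of 19 on the list, 5 fell at 15 hours (0.709% of all genes did), Rgs5, Ndufa4l2, Cox4i2, Notch3 and Vtn. At 7 days 3 fell (0.265% of all genes did), Rgs5, Ndufa4l2 and Cox4i2. The medians were -0.53 and -0.04. Vtn, vitronectin, is also abundant in liver. Myh11, the myosin of smooth muscle, held 61.3 to 72.5 CPM in the controls and 55.5 to 159 in the treated libraries at 7 days, with an effect of 0.33 ± 0.28 (edgeR adjusted p = 0.666).

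The other Notch readouts gave 1 call. Of the 8 readouts 7 were tested, none had a called interaction, and Notch3 at 15 hours and Hey1 at 7 days were the only calls. The median was 0.00 at 15 hours and -0.63 at 7 days, where all 7 were below 0, and the median interaction was -0.46. For the interaction 2 were lower at an unadjusted p of 0.05 by edgeR, and DESeq2 called 1 lower. Hey1, a transcriptional repressor of vessels, held 7.87 to 10.8 CPM in the controls and 8.44 to 10.9 in the treated libraries at 15 hours. Control libraries at 7 days held 10.0, 10.7, 11.7, 13.8 and 17.8 CPM and the treated libraries 6.51, 7.48, 7.82, 8.05 and 8.78, which were all below the controls. The effect was 0.00 ± 0.15 and then -0.72 ± 0.15 (edgeR adjusted p = 0.0410), with an interaction of -0.73 ± 0.21 that did not pass (edgeR adjusted p = 0.150). When the 6 libraries were omitted, the 7-day effect was -0.52 (adjusted p = 0.254).

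Heyl, a repressor of mural cells, held 29.1 to 42.1 CPM in the controls and 12.4 to 28.5 in the treated libraries at 7 days, which did not overlap, with an effect of -0.73 ± 0.27 (edgeR adjusted p = 0.297). Hes1, a repressor found in most cells, had effects of 0.06 ± 0.27 and -0.41 ± 0.27, and Nrarp, which feeds back on the receptor complex, of -0.39 ± 0.33 and -0.51 ± 0.32, none of which passed. The transcripts of the antibodies' targets did not pass at either time. Jag1 had effects of -0.17 ± 0.13 and -0.10 ± 0.13 and Jag2 of -0.26 ± 0.13 and -0.03 ± 0.13 (edgeR adjusted p of at least 0.575). The antibodies act on the proteins, so these levels do not test the block. Of 10 receptors and ligands, Notch3 at 15 hours was the only call, and none of 20 genes of Notch processing and transcription was called for the interaction or at either time by edgeR, with 1 lower at an unadjusted p of 0.05 for the interaction, 0 at 15 hours and 1 lower at 7 days.

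**Figure D5:**
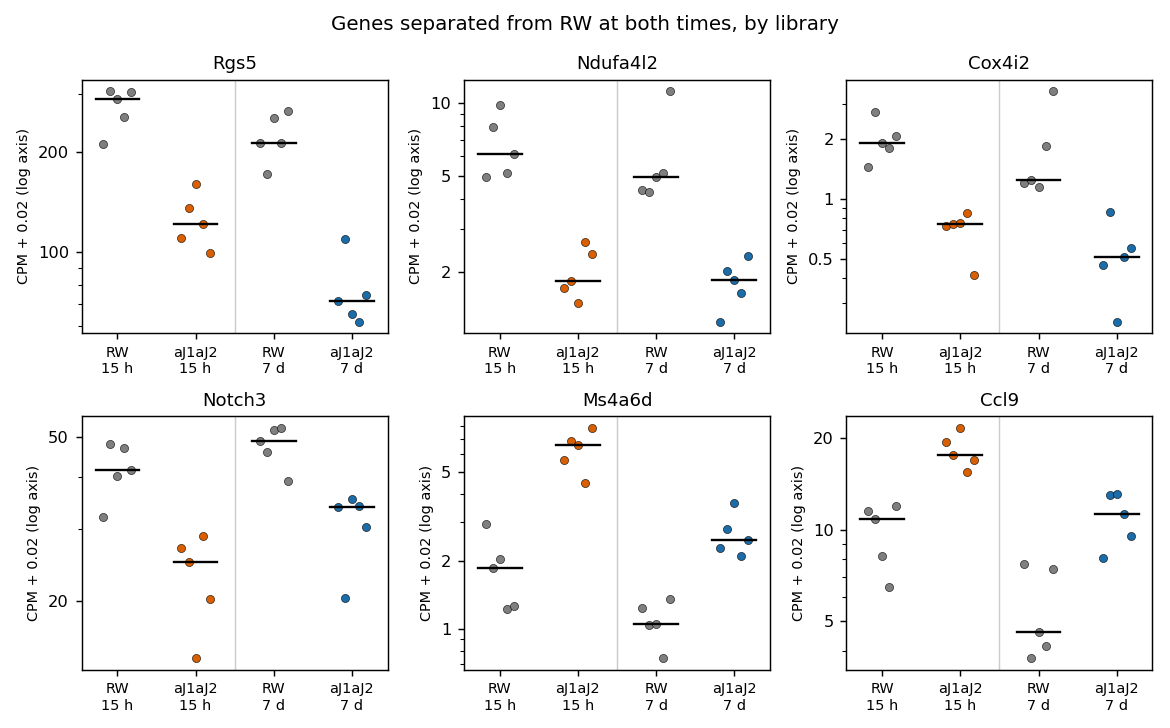
CPM (log axis, offset 0.02) of genes compared for an effect at both times, 1 point per library and a bar at the group median, for RW and aJ1aJ2 at each time. Treated libraries of Rgs5 lie between 99.6 and 160 at 15 hours and between 61.9 and 110 at 7 days, below all controls of the same time.

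On the higher side, Ms4a6d, a membrane protein of macrophages, held 1.20, 1.25, 1.84, 2.04 and 2.92 CPM in the controls and 4.46, 5.62, 6.54, 6.87 and 7.83 in the treated libraries at 15 hours. By 7 days the controls held 0.722 to 1.34 CPM and the treated libraries 2.10, 2.28, 2.46, 2.77 and 3.60. The groups were apart at both times, and the average effect was 1.53 ± 0.18 (edgeR adjusted p = 0.000355). Its 7-day call was lost without the 6 libraries (adjusted p = 0.231). Siglec1, a sialic acid receptor of macrophages that interferon raises, had effects of 1.54 ± 0.25 (edgeR adjusted p = 0.00422) and 0.91 ± 0.26 (edgeR adjusted p = 0.139), with an average of 1.22 ± 0.18 (edgeR adjusted p = 0.00424). Ccl9, a chemokine of myeloid cells, had effects of 0.89 ± 0.21 (edgeR adjusted p = 0.0456) and 0.99 ± 0.22 (edgeR adjusted p = 0.0520), and the average was 0.94 ± 0.15 (edgeR adjusted p = 0.0107). In the fit of 14 libraries the averages of Siglec1 (1.32, adjusted p = 0.0187) and Ccl9 (0.89, adjusted p = 0.0276) passed and their 15-hour effects did not (adjusted p = 0.0566 and 0.220).

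Krt5, a keratin of basal cells, had an average effect of -4.49 ± 0.81 (edgeR adjusted p = 0.0201), and without the 6 libraries of -2.72 (adjusted p = 0.161), with control libraries from 3.41 to 190 CPM at 15 hours and from 0.529 to 32.5 at 7 days. A list of 9 tested squamous genes, drawn up after the values were seen, had 4 lower at 15 hours (0.709% of all genes were) and 1 without the 6 libraries. Its sum was 40.7, 48.9, 120, 321 and 1335 unscaled CPM in the controls and 27.5 to 33.1 in the treated libraries, and the part of adhering epithelium in Krt5 and its like was not tested. Col3a1, a fibrillar collagen of connective tissue, was lower by similar amounts at each time, -0.73 ± 0.21 and -0.78 ± 0.21, and passed only as an average of -0.76 ± 0.15 (edgeR adjusted p = 0.0216).

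The genes of hormone production gave no call at either time or for the interaction by edgeR, with 1 lower at an unadjusted p of 0.05 at each time and 1 in each direction for the interaction. Of 17 tested, Tg had effects of 0.12 ± 0.41 and -0.09 ± 0.41 and Slc5a5, the iodide carrier, of -0.36 ± 0.43 and -0.76 ± 0.43. Slc5a5 held 230 to 467 CPM in the controls and 52.2 to 280 in the treated libraries at 7 days, which overlapped. Their standard errors of 0.41 or more limit what these tests could show. Genes of the citric acid cycle (18), endothelium (24) and B cells (12) had no call by edgeR. At an unadjusted p of 0.05, 3 citric acid cycle genes were higher, 2 endothelial genes higher and 4 lower, and 3 B cell genes lower at 7 days, and DESeq2 called 1 endothelial gene lower there. Over both times 7 B cell genes were lower on average at an unadjusted p of 0.05, and other settings called up to 4 of them lower at 7 days.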

How the data were processed

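RNA was sequenced from whole thyroids as single-end reads of 50 bases, per the labels' protocols. The authors deposited raw read counts per gene and a table of FPKM, in which a count is divided by gene length and sequencing depth. GSNAP and limma are listed in the submitters' processing notes without role or version, and the counting program, build, annotation and strand setting were not given in the sources used. Of 52636 Ensembl IDs, 52403 matched a GENCODE symbol and 233 did not. All columns matched a library by its title, and 0 columns had none. Promoters came from RefSeq.

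Groups and replicate numbers came from the titles. The 20 libraries, whose FPKM values share a single scaling (its coefficient of variation was 1.22%, against 8.00% over all 50), were fitted together in edgeR 4.0.16 under R 4.3.3. TMM gave the library scaling, filterByExpr removed low genes (count 10, total 15), and the robust quasi-likelihood model had 1 mean per group. Contrasts were two-sided and adjusted by Benjamini-Hochberg over 18487 genes with a threshold of 0.05. The median-of-ratios scaling, no filter, DESeq2 1.42.0, limma-trend (limma 3.58.1) on log2(FPKM + 0.1) and log2(FPKM + 1), quality weights, the muscle share as a covariate, the replicate block, all 50 libraries, each time alone and single omissions were alternatives. A second 7-day set of ligand antibody libraries has no control of its own here and was not used.

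Genes were named by rule: 12 per direction for the interaction, 8 per direction for both times and 5 per direction for each time by smallest p with at least 1 CPM on average in a group, up to 4 per list, and a fixed set that includes Notch3, Hey1, Isg15, Alb and Tg. Some genes that these rules name are not reported here. Genes named beside a count of 5 or fewer, the members of the response classes and Usp18 were picked after their values were seen. The members, the lists and these rules were chosen with earlier results of these data known. Letters of the interferon and heat-shock motifs were set, and the squamous and thymic epithelium lists drawn up, after the files were seen. No sets were tested: lists are given by counts and medians. Of 40 pairs of replicates, none agreed within sampling noise (lowest chi-square per degree of freedom 17.1, median 71.1). On simulated counts over 18337 genes the interaction test recovered 34% of genes changed by 1 on the log2 scale, 80% at 2, 92% at 3 and 90% at 4, 50 genes each, with 1 false call. The simulation drew each count independently from the fitted spread and changed only genes above 1 CPM. It holds no library that is off as a whole, so it does not give the error rates of these data.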

Additional observations from a re-analysis of the deposited data

Results flagged for a closer look

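In groups of 5, a library was singled out where its gap to the next took up more than 0.71 of the group's range. For normally distributed values chance gives this for about 1 in 20 groups. The rule was applied to CPM without a log, and such values can be skewed, so the chance rate here is not known. The groups checked were those of the genes named for the interaction or for both times and of 8 list sums, a chosen subset, and 26 of 192 (13.54%) met it. Skeletal muscle markers summed to 96500 CPM in aJ1aJ2 replicate 3 at 15 hours and to 129000 in aJ1aJ2 replicate 2 at 7 days. A control library at 15 hours reached 98445 for them, which the rule did not single out. The treated library of 129000 also stood out for brown fat (3360) and T cell and thymus markers (33.5), and for cartilage markers as the lowest (55.9). T cell and thymus markers reached 830 in RW replicate 2 at 7 days, 114 in RW replicate 2 at 15 hours and 60.5 in aJ1aJ2 replicate 5 at 15 hours. Airway markers reached 10200 in RW replicate 5 and squamous markers 1330 in RW replicate 3 at 15 hours, and liver transcripts 3370 in RW replicate 1 at 7 days.

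That RW library at 7 days was also far above the others for Aadac (8.89 CPM), Sult2a8 (11.9), Serpina1d (41.3) and Mup11 (8.78), all genes of liver. RW replicate 5 at 15 hours stood out for Col3a1 (449) and Fmo2 (74.4), RW replicate 3 for Krt5 (190), and RW replicate 5 at 7 days for Klf9 (86.5, the lowest) and Ndufa4l2 (11.1). At 15 hours aJ1aJ2 replicate 5 was apart for Cox4i2 (0.394, the lowest), Mrc1 (10.1, the lowest) and Aadac (0.0246, the only one above 0), and aJ1aJ2 replicate 3 for Ccl6 (34.4). At 7 days aJ1aJ2 replicate 2 was highest for Rgs5 (110) and Klf9 (317).

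The effect differed between 7 days and 15 hours by the interaction test for 28 named genes, and the 12 with the smallest p in each direction are given here as log2 values. It was higher at 7 days for Ciart (2.02), Fmo2 (1.89), Slc10a6 (2.54), Spsb1 (1.33), Klf9 (1.23), Mrc1 (1.32), Ccl24 (2.65) and the liver-abundant Aadac (5.59), Sult2a8 (4.15), Serpina1d (4.03), Mup17 (4.21) and Mup11 (3.61). The value of Aadac rests on 1 read among the treated libraries at 15 hours and depends on the prior count of the fit, and Mup11 and Mup17 have near-identical copies. It was lower for Oasl2 (-2.93), Slfn1 (-5.46), Saa3 (-7.26), Slfn8 (-2.23), Isg15 (-3.49), Lgals3bp (-1.92), Oas3 (-4.48), Ms4a4c (-2.79), Irf7 (-2.80), Ifit1 (-3.15), Rtp4 (-2.46) and Shisal1 (-1.87).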

How the results depend on the processing

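No called effect of a named gene reversed its direction under an alternative. The balance of higher against lower interactions did, as did that of the 15-hour effects. With median-of-ratios scaling, all 28 named interactions kept their call and the count was 65. The count of interactions, 58 in the reported fit, was 38 without a filter on low counts, 378 with DESeq2, 364 with quality weights, 26 in a fit of all 50 libraries, 150 at an adjusted p below 0.1, and 20 and 0 on log2(FPKM + 0.1) and log2(FPKM + 1). The count at 15 hours, 230, was 396 with DESeq2, 103 and 92 on the FPKM scales and 48 with only the 10 libraries of that time. The count at 7 days, 71, was 368 with DESeq2, 901 with quality weights, 35 and 29 on the FPKM scales, 6 with all 50 libraries and 0 with only the 10 libraries of that time. The count of the average, 152, was 101 without a filter, 502 with DESeq2, 25 and 16 on the FPKM scales, 488 with quality weights, 294 with the muscle share as a covariate and 56 with all 50 libraries. The combined test, with 0 calls, gave 4 with DESeq2, 2 with quality weights and 2 with the muscle share.

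With the replicate block, the counts were 0 for the interaction, 3 at 15 hours, 0 at 7 days and 4 for the average, and 0 genes were early and fading, late or past at both times. The labels tie the numbers to no shared mouse or day. The deviations of same-numbered libraries correlated by -0.45 to 0.41, above 0.1 in 2 of 10 pairs. So few pairs cannot show or exclude a tie such as a shared day, and the reported fit uses no pairing. In 1 case both libraries correlated best with their own number. With the 6 libraries high in markers of other tissues left out, the counts were 89 for the interaction, 9 at 7 days and 1 for the combined test, and 12 of 28 named interactions kept their call.

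Genes early and fading, late and past at both times were recounted under the other fits, a choice made after the data were seen. The 42, 10 and 5 became 186, 114 and 19 with DESeq2, 84, 164 and 27 with quality weights, 15, 2 and 2 on log2(FPKM + 0.1), 0, 0 and 2 on log2(FPKM + 1), 22, 2 and 2 with all 50 libraries, 84, 2 and 2 without the 6 libraries, and 93, 36 and 9 at an adjusted p below 0.1. With the muscle share 18 were late.

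Leaving out single libraries gave 6 to 146 interactions, 136 to 249 genes at 15 hours, 2 to 170 at 7 days, 38 (without aJ1aJ2 replicate 3 at 7 days) to 213 for the average and 0 to 1 for the combined test. Early and fading genes ran from 6 to 115, late genes from 0 to 29 and genes past at both times from 1 to 7. Of 560 refits of the named interactions 317 kept the call. Where counts fell with fewer samples or genes tested, the alternative itself tests less, and otherwise the cause was not tested. Depth limits genes below about 1 CPM, such as Saa3 in the controls, to a few counts per library.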

Other observations

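The study also holds ligand blockade and control libraries at 5 days, from other mice, which share none with the 20 used here. In a fit of the 5-day groups 33 of 18434 genes were called. Of the 7 genes that rose late, 6 had the same direction at 5 days, with a median log2 fold change of 0.23, where the median over all genes was -0.06. Fmo2 was called, at 0.92 (edgeR adjusted p = 0.0431), and Galnt15, called at 7 days without a called interaction, was at 1.47 (edgeR adjusted p = 0.0208). Inmt, a methyltransferase of fibroblasts, was at 1.83 at 5 days (edgeR adjusted p = 0.00970) and at 1.02 ± 0.25 at 7 days (edgeR adjusted p = 0.0734), where its controls held 18.7 to 41.1 CPM and the treated libraries 45.9 to 71.1. Of the 49 genes lower at 7 days, 13 were lower at 5 days and the median was 1.15 in the other direction. Of the 3 genes that fell late, 1 was lower at 5 days (median 0.52). Of Rgs5, Ndufa4l2 and Cox4i2, lower at both times, 2 were lower at 5 days (median -0.35) and none reached an unadjusted p of 0.05 there. Of the genes that rose early and faded, 30 without Slfn1, 17 were higher at 5 days, with a median of 0.11, and none was called.

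At 7 genes the interaction passed and neither time did: Ccl5, Cd52, Epsti1, Ifi206, Ifi209, Mmp25 and Riox1, each lower at 7 days relative to 15 hours. With the 6 libraries left out, only Riox1 kept this call (edgeR adjusted p = 0.0318). The others had edgeR adjusted p from 0.171 (Cd52) to 0.424 (Ccl5). Ets1, a transcription factor of endothelium and lymphocytes, held 68.7 to 117 CPM in the controls and 31.1 to 51.8 in the treated libraries at 7 days, which did not overlap, and fell by 0.95 ± 0.17 (edgeR adjusted p = 0.0240), while at 15 hours it was at 0.04 ± 0.16. Xdh, the enzyme that makes uric acid, rose at 7 days by 1.31 ± 0.28 (edgeR adjusted p = 0.0498), from 28.9 to 62.6 CPM in the controls to 70.7 to 156 in the treated libraries. Apod, a lipid carrier of fibroblasts and nerve sheaths, had effects of 1.56 ± 0.48 and 1.63 ± 0.48 that passed only as an average (1.60 ± 0.34, edgeR adjusted p = 0.0315), and without the 6 libraries not at all (1.15, adjusted p = 0.267).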
